A study of Gallus gallus with 6 samples.

Results

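The cytosolic ribosome is the machine that reads messenger RNA and builds protein, and the ribosomal protein genes encode the proteins that sit on its RNA core. In vertebrates the proteins of the large subunit carry RPL names and those of the small subunit RPS names, and every growing cell makes them in near-equal amounts. Their messages mostly start with a run of pyrimidines, the terminal oligopyrimidine (TOP) tract, through which the kinase mTOR and the RNA-binding protein LARP1 control their translation. The transcription factor MYC raises their transcription, and human tumours often differ from normal tissue in the demand for ribosomes.

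The set described here holds the genes of these proteins on the Affymetrix chicken expression array. A gene belongs to it when a probe set has that gene as its only symbol in the platform annotation and the symbol is RPL or RPS with a number and at most 1 further letter, or RPLP0, RPLP1, RPLP2 or RPSA. RPS6K kinases were left out. The rule found 62 genes on 132 of the 38439 probe sets that are not array controls. Each gene is represented by its probe set with the highest mean signal. 61 of the 62 genes passed the filter on low signal and were tested; RPL3L, in mammals a muscle relative of RPL3, did not pass and had signals of 16.3 to 42.4. The rule finds no probe set for RPSA, and the array lists that receptor-like small subunit protein under the name RPSAP58, which is treated with the relatives below.

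The arrays were made from whole ovaries of 6 Gallus gallus hens, 1 array per hen. Ovarian cancer was present in 3 hens (named 4, LB14 and LB11 in the titles), with a tumour either limited to the ovary or spread to the abdomen. The ovaries of the other 3 hens (36, LB3 and LB22) looked normal by eye and under the microscope. Age and laying status were matched between the groups; ages, strain and the stage of each tumour are not stated. No treatment or genetic change is named for either group. Because whole ovaries were used, an array reads follicles, stroma and tumour together, and a change in the number of cells of a type cannot be told apart from a change in RNA per cell.

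All arrays were scaled by the authors to the same trimmed mean of 500.1, so each signal is relative to that mean and not an amount per cell. Of 11 follicle markers, FOXL2 and AMH stayed bright in all samples. They encode a granulosa cell transcription factor and a hormone of the same cells. FOXL2 had signals of 4913 to 11079 in the tumour-bearing ovaries and of 10929 to 11766 in the normal ones. AMH lay between 5317 and 9929 against 14502 to 16132. Several other follicle markers fell further in the tumours. ZP3 had 308 to 491 against 2293 to 6876, and STAR 76.6 to 549 against 1739 to 3447. FSHR fell less than AMH, with 489 to 814 against 892 to 1102. The mean log2 level of the 11 markers minus the normal mean was −2.68, −2.26 and −1.44 in tumours 4, LB14 and LB11. Tumour samples also carried egg-white genes of the oviduct, whose 6 markers summed to 53848 to 99443, against 634 to 1961 in normal ovaries. AVD, 1 of the 6, did not rise with the rest. Its signals were 1175, 215 and 51.0 in tumours 4, LB14 and LB11 and 208, 694 and 50.8 in normal hens 36, LB3 and LB22.

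Ribosomal protein messages moved as a block within each hen, and the blocks of the 3 tumours did not move the same way. Relative to the mean of the normal hens on the log2(signal + 16) scale, the median over the 61 genes was 0.48 in tumour LB14 and 0.31 in tumour LB11, but −0.26 in tumour 4. The normal ovaries stayed close together, at 0.04 in hen 36, −0.08 in hen LB3 and 0.02 in hen LB22. The SD of these hen medians was 0.39 among tumours and 0.065 among normal ovaries (n = 3 each).

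**Figure D1:**
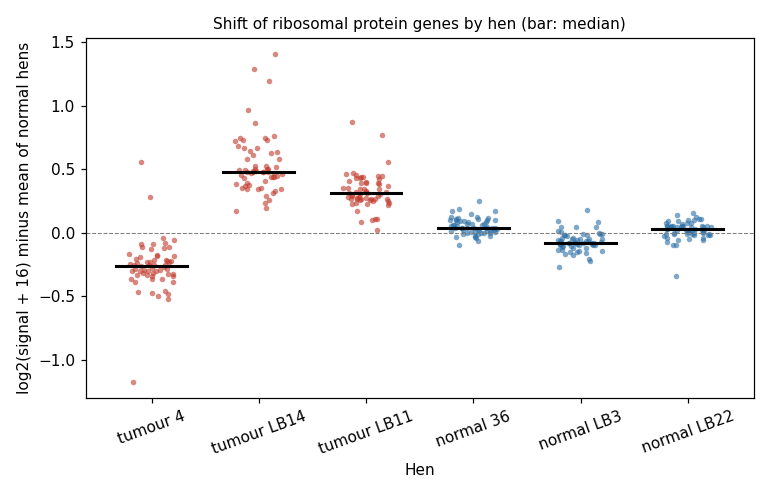
Log2(signal + 16) of each of the 61 tested ribosomal protein genes minus its mean in the 3 normal hens (vertical axis), by hen (horizontal axis); each point is a gene, red for tumours and blue for normal ovaries, and the black bar is the median. The medians lie at −0.26, 0.48 and 0.31 in tumours 4, LB14 and LB11 and between −0.08 and 0.04 in the normal hens.

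The order of the hens was nearly the same gene by gene. Tumour 4 had the lowest of the 6 signals for 55 of the 61 genes, where this held for 20.6% of all tested probe sets. Tumour LB14 had the highest signal for 57 genes, against 23.9% of all tested probe sets, and tumour LB11 had it for the other 4, against 18.7%. In 51 genes both held at once, against 7.07%. For 53 genes tumour 4 lay below every normal ovary while LB14 and LB11 both lay above every normal ovary, a pattern found in 3.69% of tested probe sets. The 8 genes without it were RPL6, RPL14, RPL21, RPL23, RPL34, RPS2, RPS13 and RPS27L. These counts were made after the hen medians had been seen, and genes that move together are not independent of one another. The shares cover tested probe sets of every brightness, whereas 53 of the 61 members had a mean signal of 10000 or more. Shares among probe sets of like brightness were not counted. The 219 other probe sets that bright had hen medians of −0.21, 0.08 and 0.11 in tumours 4, LB14 and LB11.

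**Figure D2:**
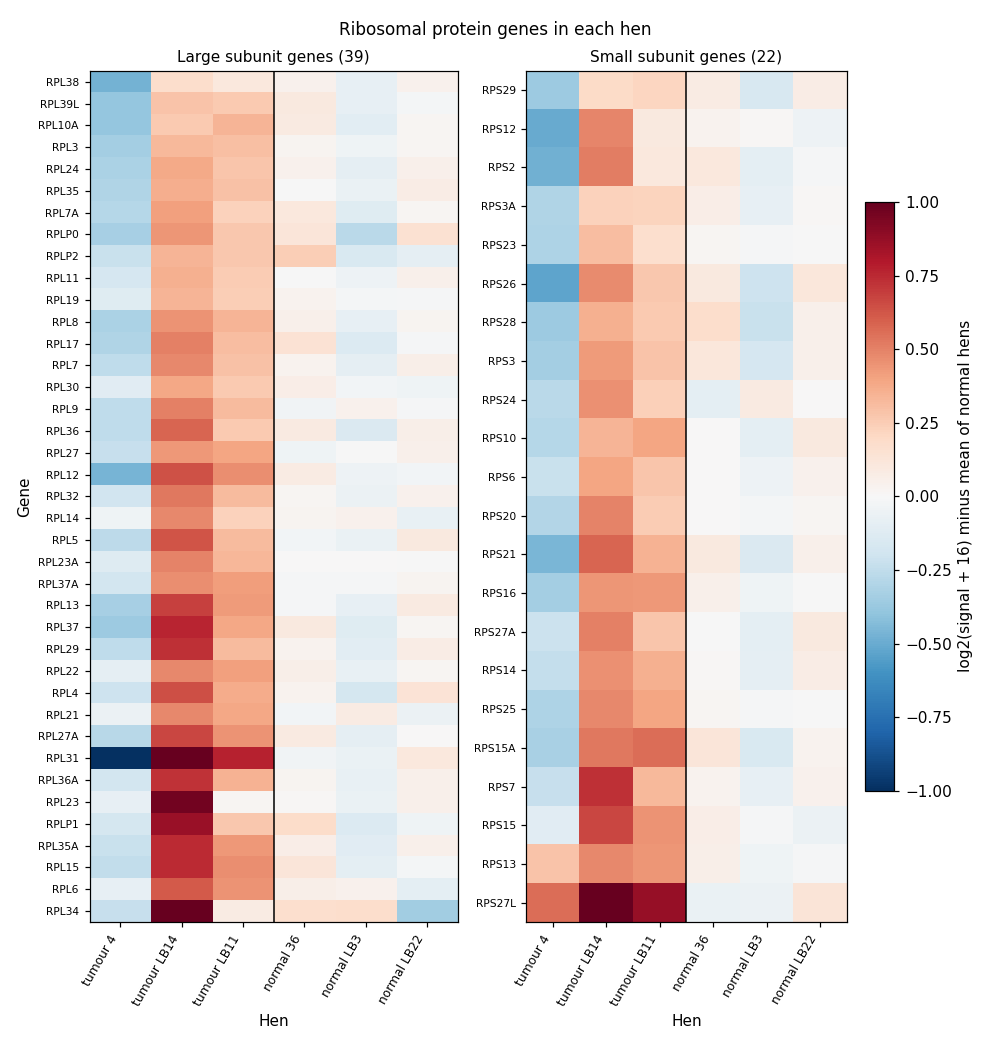
Colour map of log2(signal + 16) minus the mean of the normal hens for 39 large subunit genes (left) and 22 small subunit genes (right); rows are genes ordered by their cancer minus normal difference, columns are hens, and colours stop at −1 and 1. Tumour 4 is blue in nearly all rows while LB14 and LB11 are red, and RPS27L and RPS13 are red in all 3 tumours.

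No ribosomal protein gene passed the test between the groups after adjustment over all probe sets. With limma across 23063 probe sets, 0 of the 61 genes were higher and 0 lower at an adjusted p under 0.05, where 0.234% of all tested probe sets were higher and 0.0434% lower. At an unadjusted p under 0.05 there was 1 gene, RPS27L, which is 1.64% of the 61, against 10.1% of all tested probe sets. The adjusted p-values ran from 0.20 to 0.988. Although 60 of the 61 differences were positive (49.5% of all tested probe sets were), the genes share the same 6 hens and these are not 60 separate observations. The median difference was 0.19, against −0.0039 over all tested probe sets.

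The size of that median depended on which tumour entered. Without tumour 4 the median was 0.41 and all 61 differences were positive, and 51 genes had an unadjusted p under 0.05 (12.8% of all probe sets did). Still 0 passed the adjusted threshold in that comparison, in which limma adjusted p-values of the genes began at 0.102. Without tumour LB14 the median was 0.03, with 38 of 61 differences positive, and without LB11 it was 0.10. In either comparison 1 gene had an unadjusted limma p under 0.05 (11.9% and 10.9% of all probe sets did). Tumour 4 was the tumour with the opposite shift, so leaving it out narrows the spread among the tumours. The 51 genes move together and share the same hens, so they are not 51 separate observations. For 58 of the 61 genes the 95% confidence interval of the difference over all 6 hens lay within −1 and 1, so that a change in the group mean as large as 1 log2 unit lay outside it. The exceptions were RPS27L, RPL31 and RPL34.

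**Figure D3:**
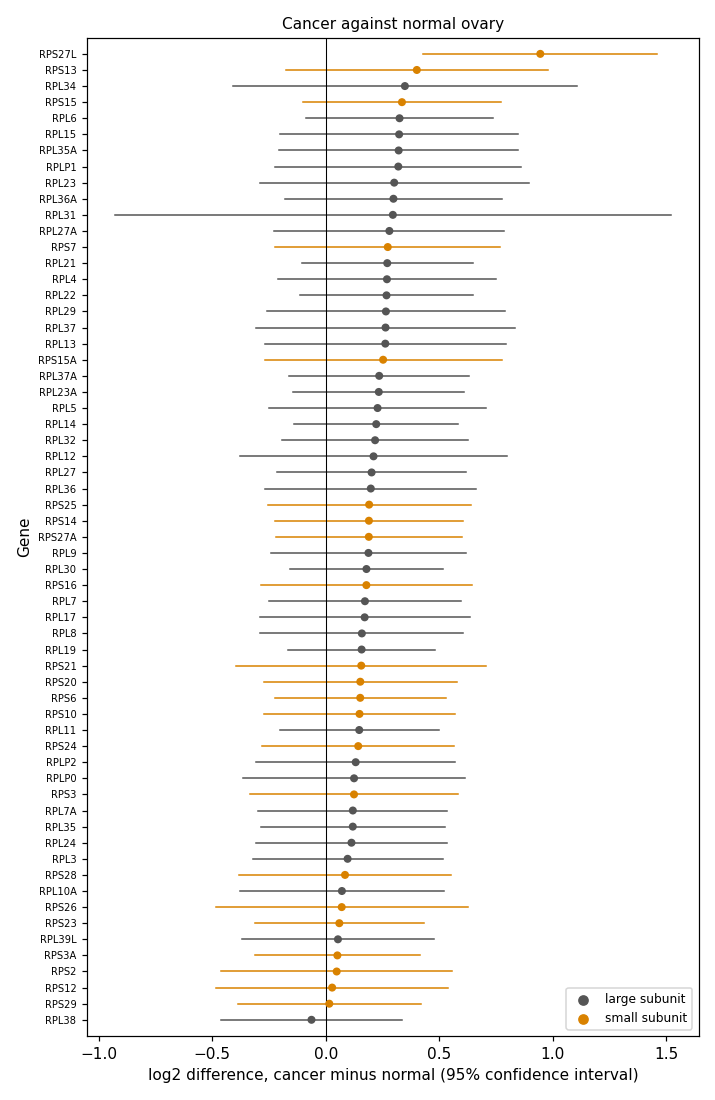
Log2 difference, cancer minus normal, of the 61 tested genes with limma's 95% confidence interval (horizontal axis) in order of size (vertical axis), grey for large and orange for small subunit genes. Intervals of 60 genes include 0; that of RPS27L runs from 0.43 to 1.46.

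Among large subunit proteins, 38 of 39 differences were positive with a median of 0.22, and all 39 genes had a larger SD among tumours than among normal ovaries, as did all 22 small subunit genes and 69.4% of all tested probe sets. RPL6, a protein of the subunit's surface, had the smallest p of them. Its signals were 15565 in tumour 4, 25222 in LB14 and 22560 in LB11, and 17174, 17042 and 15404 in normal hens 36, LB3 and LB22. LB14 and LB11 were above all normal ovaries, whereas tumour 4 fell among them, and the difference of 0.32 (SE 0.18, limma adjusted p = 0.62) did not pass. RPL21 was similar, with tumour signals of 9526, 13804 and 12994 in hens 4, LB14 and LB11 against 9525 to 10496 in normal ovaries, a difference of 0.27 (SE 0.17). RPL22, which binds a small viral RNA in human cells and is dispensable for the ribosome in mice, differed by 0.27 (SE 0.17) with tumour 4 below the normal range.

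RPL5 and RPL11 join the 5S ribosomal RNA before it enters the large subunit, and in mammals the free complex binds MDM2, the inhibitor of p53. RPL5 had signals of 11251, 20838 and 16766 in tumours 4, LB14 and LB11 and of 12853 to 14408 in normal ovaries. RPL11 had 16158, 23145 and 21609 against 17506 to 18791. Both genes therefore straddled the normal range, with differences of 0.23 (SE 0.21) and 0.15 (SE 0.15). MDM2 itself had signals of 258, 1005 and 556 in tumours 4, LB14 and LB11 and of 458 to 687 in normal ovaries (difference −0.12, SE 0.43, limma adjusted p = 0.958).

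The P proteins RPLP0, RPLP1 and RPLP2 form the stalk that recruits elongation factors. RPLP0, widely used as a reference gene, had signals of 11191, 19162 and 16990 in tumours 4, LB14 and LB11, and of 15331, 11679 and 15717 in normal hens 36, LB3 and LB22. It also varied among the normal ovaries, where hen LB3 was almost as low as tumour 4; its log2 SD there, 0.24, was exceeded only by that of RPL34 among the 61 genes. RPLP1 reached 27577 in LB14 and 18211 in LB11, against 13428 in tumour 4 and 13767 to 17190 in normal ovaries. RPLP2 lay between 5764 and 8513 in tumours and between 6026 and 7983 in normal ovaries. Their differences were 0.12, 0.32 and 0.13, with limma adjusted p-values of 0.904, 0.739 and 0.881.

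RPL38, which in mice is needed for translation of some HOX messages, was the 1 gene of the 61 with a negative difference. Signals were 18749, 29350 and 28048 in tumours 4, LB14 and LB11 and 26754, 24555 and 26811 in the normal hens 36, LB3 and LB22. LB14 and LB11 were thus only slightly above the normal range while tumour 4 was well below it, and the difference was −0.06 (SE 0.18, limma adjusted p = 0.945). It was 0.14 without tumour 4. RPL39L, which the RefSeq gene table also lists as RPL39, a protein lining the exit tunnel, had a difference near 0 as well (0.05, SE 0.19).

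Other large subunit genes named by their small p were RPL14, RPL15, RPL23A, RPL35A, RPL36A and RPL37A. RPL23A lies at the tunnel exit, where signal recognition particle docks. Its signals were 17230 in tumour 4, 26565 in LB14 and 23697 in LB11, against 18740 to 18925 in normal ovaries, whose log2 SD was the smallest of the 61 genes. RPL37A showed 21740, 34111 and 33062 in tumours 4, LB14 and LB11 against 24471 to 25116. The differences of these 6 genes lay between 0.22 and 0.32, all with limma adjusted p-values between 0.722 and 0.737.

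Among small subunit proteins, all 22 differences were positive with a median of 0.15, and 20 of the 22 genes had their lowest signal in tumour 4. RPS6, the substrate of the S6 kinases, had signals of 20148, 30835 and 28489 in tumours 4, LB14 and LB11 and of 22660 to 24194 in normal ovaries, a difference of 0.15 (SE 0.17). RPS15, near the decoding site, had 14659, 25152 and 21629 against 15233 to 16608. Its difference was 0.34 (SE 0.19, limma adjusted p = 0.63). In both genes the tumours lay on either side of the normal ovaries.

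On the probe sets that represent the genes, RPS27L departed from the others. This relative of the small subunit protein RPS27 is a target of p53 in human cells. Its signals were 2671, 4828 and 3323 in tumours 4, LB14 and LB11, and 1725, 1740 and 1978 in normal hens 36, LB3 and LB22. All 3 tumours, tumour 4 included, exceeded every normal ovary. The difference was 0.94 (SE 0.23, 95% interval 0.43 to 1.46, a 1.92-fold higher level), with an unadjusted p of 0.00253 and a limma adjusted p of 0.20, so the call across all probe sets was not reached. It has 1 probe set on the array. Over 21 alternative settings the difference lay between 0.71 and 1.15 and 0 of them passed the adjusted threshold. The groups were free of overlap for RPS27L and for RPS13, and for no gene in the lower direction; over all tested probe sets 7.45% were higher and 8.03% lower without overlap.

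RPS13 needs care, because its probe set with a single gene symbol is dim. The signals were 105, 123 and 119 in tumours 4, LB14 and LB11 and 87.8, 80.3 and 82.4 in normal hens 36, LB3 and LB22 (difference 0.40, SE 0.25, limma adjusted p = 0.676). A second tested probe set for RPS13 differed by 0.20 and overlapped between the groups. RPL31 was also read dimly, at 131, 793 and 546 in tumours 4, LB14 and LB11 against 299 to 340 in normal ovaries. These 2 genes were the only members with a mean signal under 1000, and 53 of the 61 had a mean of 10000 or more.

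**Figure D4:**
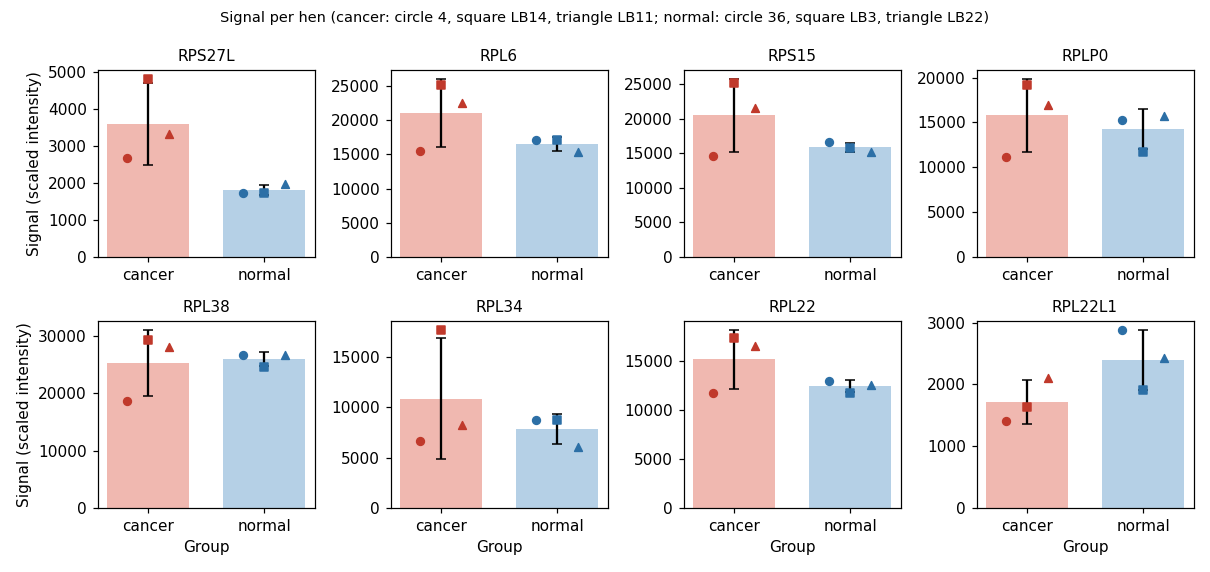
Deposited signal of 7 ribosomal protein genes and of RPL22L1 in each hen; bars are group means, black whiskers are 1 SD (n = 3), and points are hens (circle, square and triangle for tumours 4, LB14 and LB11 and for normal hens 36, LB3 and LB22). RPS27L is higher in every tumour, while RPL6, RPS15, RPL22, RPLP0 and RPL38 have tumour LB14 as the highest and tumour 4 as the lowest or near the lowest hen.

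Subunit and evolutionary age made little difference to the shift. The large subunit had medians of −0.25, 0.50 and 0.31 in tumours 4, LB14 and LB11 and the small subunit −0.30, 0.48 and 0.28. The 25 genes whose proteins also exist in bacteria and archaea had −0.30, 0.48 and 0.31, and the other 36 had −0.24, 0.48 and 0.30. For the 13 genes that cause Diamond-Blackfan anaemia when mutated in humans the values were −0.27, 0.46 and 0.31. Each of these subsets varied more between tumours than it differed from another subset, and the subsets overlap.

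Between tumour 4 and the other tumours, the proportions of the messages to each other were kept more closely than their level. Over 59 genes, without the dim RPL31 and RPS13, tumour 4 and tumour LB14 differed by a median of 0.76 log2 units, while the SD of that difference over genes was 0.19. Between normal ovaries the median differences were 0.019 to 0.10 and the SDs 0.11 to 0.14. Pairs of tumours had SDs of 0.15 to 0.21. The between-tumour shift was therefore several times the unevenness around it for tumour 4 against the other tumours, and about the same size as the unevenness for LB14 against LB11 (0.18 and 0.21).

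When each hen was centred on its own median over the members, 58 of the 61 differences were smaller than 0.2 in size. RPS27L remained at 0.75 (SE 0.30, limma adjusted p = 0.518), with 0.83, 0.93 and 0.50 in tumours 4, LB14 and LB11 relative to the normal mean. RPL38 had the most negative relative value, −0.25 (SE 0.13, limma adjusted p = 0.761), and lay below the normal range in all 3 tumours (−0.20, −0.30 and −0.26). In this centred comparison 3 members were higher without overlap (RPS27L, RPS15 and RPL35A) and 7 lower (RPL3, RPL8, RPL24, RPL38, RPL39L, RPS3A and RPS23). Over all probe sets 2.29% were higher and 8.73% lower without overlap. With limma 0 members passed the adjusted threshold, and 1 had an unadjusted p under 0.05, beside 7.38% of all probe sets.

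The brightness distribution of the arrays moved with the shift. The 99th percentile of signal was 8121 in tumour 4, 9409 in LB14 and 9200 in LB11, against 8751 to 9018 in normal ovaries. Probe sets outside the naming rule with a mean signal of 10000 or more, 219 in number, had medians of −0.21, 0.08 and 0.11 in tumours 4, LB14 and LB11. They still include bright relatives of the family, such as RPL26L1, RPSAP58 and RACK1, which are described below. After quantile normalization, which gives every array the same distribution, the members' medians became −0.04, 0.24 and 0.09, and those of the other bright probe sets 0.02, −0.11 and −0.03. The low level in tumour 4 thus shrank to the size of the normal spread under that scaling. LB14 and, by less, LB11 stayed above the normal hens (−0.04 to 0.02). Of the 61 members, 53 had a mean signal of 10000 or more. They are themselves part of the bright end that this normalization makes equal, so some shrinkage can follow from the method alone. The median difference between groups was then 0.11, and 13 members were higher and 1 (RPL38) lower without overlap, where 6.94% and 8.84% of all probe sets were. Again 0 passed the adjusted limma threshold, with 2 at an unadjusted p under 0.05 (RPS27L and RPS15), beside 10.1% of all probe sets.

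**Figure D5:**
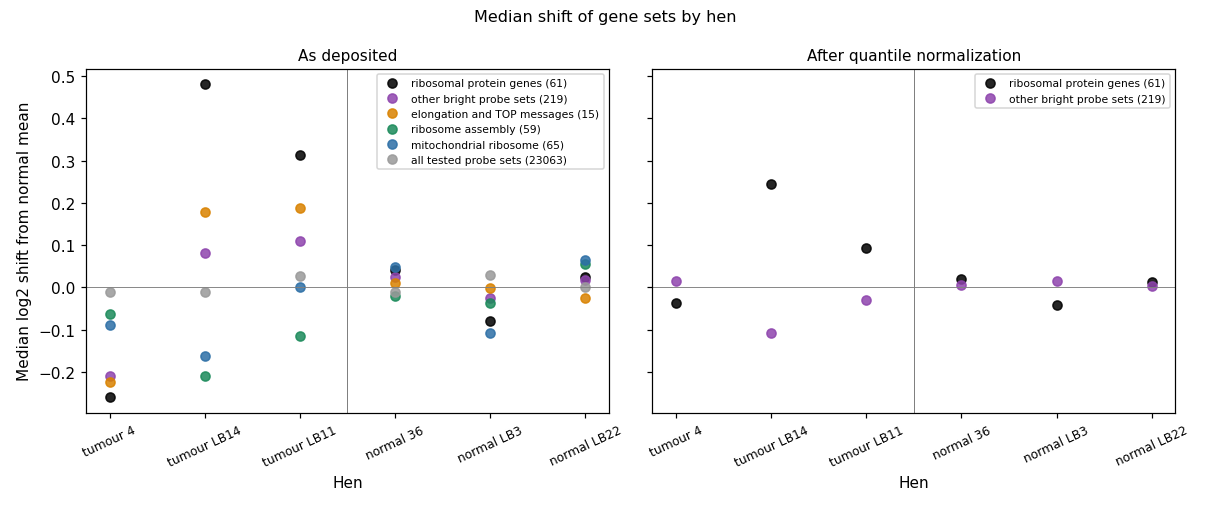
Median over the genes or probe sets of each set of log2(signal + 16) minus the mean of the normal hens (vertical axis), by hen, for the deposited signals (left) and after quantile normalization (right); numbers in brackets are set sizes and the vertical line separates tumours from normal hens. Ribosomal protein genes spread from −0.26 to 0.48 among tumours on the left and from −0.04 to 0.24 on the right. Ribosome assembly genes lie between −0.21 and −0.06 in the tumours and between −0.04 and 0.05 in the normal hens.

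In sum over the members, the ribosomal protein signal made up 3.23%, 5.11% and 4.54% of all signal in tumours 4, LB14 and LB11 and 3.60% to 3.87% in normal ovaries. The group means were 4.29% ± 0.964 and 3.76% ± 0.141 (SD, n = 3 each). The exact two-sided permutation test gave p = 0.4; a design of this size cannot reach a p below 0.1.

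Cell type markers differed between the tumours too, and their part in the shift was not tested. In tumour 4 the mean log2 level of 7 fibroblast matrix genes was 1.29 units under the normal mean (−1.29), against 0.0018 in LB14 and −0.025 in LB11; the sum of their signals ran from 27347 to 86273 in tumours and from 69422 to 98665 in normal ovaries. T cell markers (6 genes) stood at −0.84, 0.51 and 0.17 in tumours 4, LB14 and LB11, with sums of 999 to 2541 against 1167 to 2252. Red cell markers (3 genes) stood at −1.30, −0.21 and 0.48, with sums of 5321 to 30127 against 18695 to 23756. The mean over 11 follicle markers was −2.68, −2.26 and −1.44 in tumours 4, LB14 and LB11, with sums of 16873 to 33897 against 50837 to 70205, and 1 of the 11 passed the limma threshold as lower. The mean over 7 epithelial markers was 3.05, 3.36 and 2.00, with sums of 25493 to 63853 against 16082 to 19055, and 3 of the 7 passed as higher. Those were CDH1, CLDN10 and CLDN3, of which CLDN3 had signals of 5.19 to 28.8 in normal ovaries. ELF3 was higher in every tumour without passing. EPCAM, KRT7 and CLDN4 overlapped between the groups. The remaining sets follow in the order tumours 4, LB14 and LB11. Proliferation markers were below the normal mean in each tumour, at −0.47, −0.39 and −0.34, but normal hen LB3 stood at −0.33 as well. Normal hens 36 and LB22 stood at 0.24 and 0.09. Macrophage markers stood at −0.26, −0.24 and 0.18, with normal hens between −0.46 and 0.37. Endothelial ones stood at −0.35, −0.30 and 0.09, with normal hens between −0.14 and 0.14. Smooth muscle markers stood at −1.04, −0.13 and 1.51, with normal hens between −0.46 and 0.40. In tumour 4 these genes disagreed. TAGLN (4618 against 2688 to 5224) and MYH11 (1582 against 1132 to 1692) lay within the normal range. ACTG2 (424 against 890 to 2574), DES (139 against 422 to 672) and ACTA2 (6.72 against 21.4 to 153) lay below it. B cell markers stood at −0.39, 0.43 and −0.0059, with normal hens between −0.32 and 0.52. Oocyte and germ cell markers stood at 0.38, −0.28 and 0.57, with normal hens between −0.15 and 0.18. None of these marker genes was listed at 0 in any hen, but this does not show that each was detected. Some signals lay below 66.9, the limit that the filter set for a mean signal. ACTA2 of the smooth muscle set and CD28 and TRAT1 of the T cell set did not pass the filter. Their values still enter the means given here. The 3′/5′ log2 ratio of the actin control, a measure of RNA integrity, was 0.14, 0.23 and 0.11 in tumours 4, LB14 and LB11 and −0.12 to 0.22 in normal ovaries.

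Some genes belong to the ribosome's family but fall outside the naming rule. Of 6 such genes, 5 differences were positive, 0 passed the limma threshold and 0 had an unadjusted p under 0.05; the median was 0.17, and the hen medians were −0.24, 0.48 and 0.32 in tumours 4, LB14 and LB11. RACK1, a scaffold on the small subunit, differed by 0.25 (SE 0.19) and RPSAP58 by 0.21 (SE 0.25). RPL26L1, which the gene table also lists as RPL26, differed by 0.27 (SE 0.19). RPL22L1, a relative of RPL22 that can take its place on the mouse ribosome, went the other way. Its signals were 1406, 1629 and 2109 in tumours 4, LB14 and LB11 and 2873, 1902 and 2424 in normal hens 36, LB3 and LB22 (difference −0.48, SE 0.22, limma adjusted p = 0.523).

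Within each array the log2 ratio of RPL22 to RPL22L1 was 3.05, 3.40 and 2.96 in tumours 4, LB14 and LB11 and 2.17, 2.62 and 2.37 in normal hens 36, LB3 and LB22. Every tumour had a higher ratio than every normal ovary, by 0.75 on average. With an exact two-sided permutation test p was 0.1, the smallest possible, and 0.2 after adjustment over the 2 pairs examined. The other pair, RPL7 to RPL7L1, had ratios of 1.13, 1.95 and 1.87 against 1.37 to 1.64 (exact permutation p = 0.7). The pairs were chosen after the values had been seen.

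Elongation factors and other TOP messages had hen medians of −0.22, 0.18 and 0.19 in tumours 4, LB14 and LB11 over 15 genes, and a median difference of 0.09. With limma 0 passed the threshold and 1 had an unadjusted p under 0.05, beside 10.1% of all tested probe sets. EEF1A1, which carries aminoacyl-tRNA to the ribosome, had signals of 24242 in tumour 4 and a mean of 29857 ± 4863 (SD, n = 3) in cancer against 28778 ± 1602 in normal ovaries. EEF2, the translocase, differed by −0.04 (SE 0.14) and TPT1 by 0.09 (SE 0.18). EEF1D, an exchange factor subunit, ran like a member at 16933, 34685 and 26167 in tumours 4, LB14 and LB11 against 19719 to 20422. NAP1L1, a histone chaperone, was lower in every tumour (9358 ± 837 against 11193 ± 64.9, SD, n = 3; difference −0.26, SE 0.13, limma adjusted p = 0.568). The gene with the small p was EEF1A2, an EEF1A form of muscle and neurons in mammals, with 295 ± 99.6 in cancer and 162 ± 11.7 in normal ovaries (SD, n = 3; difference 0.75, SE 0.30, limma adjusted p = 0.432).

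Genes that assemble ribosomes had negative medians in LB14 and LB11, where the ribosomal protein genes had positive ones; the difference between the sets was not tested. Of 59 tested assembly and RNA polymerase I genes, 40 had a negative difference, the median was −0.11, and the hen medians were −0.06, −0.21 and −0.12 in tumours 4, LB14 and LB11. In normal hens 36, LB3 and LB22 the medians were −0.02, −0.04 and 0.05, so tumour 4 lay close to LB3. Without overlap 15 were lower and 0 higher, beside 8.03% and 7.45% of all tested probe sets. With limma 0 passed the threshold in either direction and 5 had an unadjusted p under 0.05, beside 10.1% of all tested probe sets. TAF1B, a subunit of the factor that selects ribosomal DNA promoters, had signals of 945, 898 and 782 in tumours 4, LB14 and LB11 and of 1253 to 1350 in normal ovaries (difference −0.58, SE 0.18, limma adjusted p = 0.295). POLR1A, the largest subunit of RNA polymerase I, had 1021 ± 44.0 in cancer against 1437 ± 58.1 in normal ovaries (SD, n = 3; difference −0.49, SE 0.17, limma adjusted p = 0.362). RRP1B differed by −0.51 (SE 0.20) and NOB1, the nuclease that finishes the small subunit's RNA, by −0.53 (SE 0.21). NPM1, a nucleolar chaperone counted with the TOP messages, differed by 0.27 (SE 0.22).

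The mitochondrial ribosome is a separate particle that translates the mitochondrial genome. Over its 65 genes the hen medians were −0.09, −0.16 and −0.00028 in tumours 4, LB14 and LB11, and the median difference was −0.07. With limma 0 passed in either direction, 5 had an unadjusted p under 0.05, and 3 were higher and 8 lower without overlap; over all tested probe sets the shares were 10.1%, 7.45% and 8.03%. MRPL51 had the smallest p of its list. Its signals were 954, 1693 and 1447 in tumours 4, LB14 and LB11 and 3599, 2536 and 3370 in normal hens 36, LB3 and LB22 (difference −1.23, SE 0.25, limma adjusted p = 0.124). MRPS16 ran the other way, at 1329 ± 270 against 805 ± 144 (SD, n = 3; difference 0.71, SE 0.22, limma adjusted p = 0.309). MRPS10 differed by −0.45 (SE 0.18) and MRPL17 by −0.42 (SE 0.18).

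Initiation factors and their relatives with EIF symbols, 43 genes, had hen medians of −0.08, −0.0081 and −0.011 in tumours 4, LB14 and LB11. With limma 0 passed and 6 had an unadjusted p under 0.05, beside 10.1% of all tested probe sets. EIF3H, a subunit of the factor that readies the small subunit, had 7719, 14507 and 8782 in tumours 4, LB14 and LB11 and 6234 to 6909 in normal ovaries (difference 0.59, SE 0.23, limma adjusted p = 0.413). EIF2AK2, the kinase PKR that halts initiation when double-stranded RNA is present, differed by 0.60 (SE 0.19). EIF2D and EIF4ENIF1 differed by −0.63 (SE 0.20) and −0.54 (SE 0.17), both with lower signals in all 3 tumours.

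Regulators of ribosome production gave 0 of 13 past the limma threshold. At an unadjusted p under 0.05 there was 1 gene, MYCN, beside 10.1% of all tested probe sets. MYC had signals of 866, 2477 and 1131 in tumours 4, LB14 and LB11 and of 1346 to 1560 in normal ovaries (log2 difference −0.10, SE 0.34). Tumour LB14 lay above every normal ovary and the other two tumours lay below, so that the mean signal was higher in cancer (1491 against 1448) while the mean of the log2 values was lower. MYCN had 1094 ± 448 against 608 ± 168 (difference 0.79, SE 0.33, limma adjusted p = 0.453). LARP1 differed by 0.73 (SE 0.33), MTOR by 0.21 (SE 0.23) and EIF4EBP2, a translation repressor under mTOR, by −0.29 (SE 0.16). The 13 core proteasome subunit genes, another abundant complex, had hen medians of 0.0015, 0.14 and −0.04 in tumours 4, LB14 and LB11, with 0 past the limma threshold and 0 at an unadjusted p under 0.05. PSMA5 differed by −0.38 (SE 0.19), PSMA4 by −0.15 (SE 0.15), PSMB4 by 0.30 (SE 0.22) and PSMB1 by 0.22 (SE 0.17).

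Other probe sets of the same genes bear on how far a value depends on the probes. Of the 61 genes, 29 had more than 1 tested probe set, and in 15 of these the signs of the differences disagreed. Among 19 further probe sets with a mean signal of at least 1000, 18 had a positive difference, with a median of 0.17. Among the 35 dimmer ones 15 were positive and the median was −0.03. RPL38, for example, had −0.06 on the probe set that represents it, 0.0074 and 0.03 on other bright ones and 1.51 on a dim one (mean signal 262). RPL24 had 0.11 on the probe set that represents it but −1.30 on a dim one (SE 0.26, limma adjusted p = 0.124). Bright probe sets of RPL36 and RPL19 other than the representing ones had all 3 tumours above every normal ovary. RPL36 had 6740, 9161 and 6382 in tumours 4, LB14 and LB11 against 5352 to 5878 (difference 0.40, limma adjusted p = 0.480). RPL19 had 14107, 22584 and 19129 against 13395 to 13952 (difference 0.41, limma adjusted p = 0.472). Of 115 tested member probe sets, 5 had an unadjusted p under 0.05, beside 10.1% of all tested probe sets. No gene had 2 such probe sets. Of the probe sets that represent the members, 17 carry the suffix _s_at or _x_at, with which Affymetrix marks probes that may match more than 1 transcript or gene.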

How the data were processed

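Biotin-labelled total RNA of each ovary was read on a 1-colour array, per the labels. The deposited values are linear signal intensities made by the authors; the submitters' processing notes name GCOS, with neither version nor settings. From the values, the authors scaled each array to a common mean after trimming 2% at each end. Probe sets with a mean signal at or above the 40th percentile (66.9) were kept, 23063 in all; 96 controls were left out. Log2(signal + 16) was fitted with limma 3.58.1 in R 4.3.3 (trend, two-sided, Benjamini-Hochberg over all probe sets, threshold 0.05), a step tested on simulated data. SEs are limma's moderated ones. Array number limits precision, and whether the brightest probe sets saturated cannot be read from the values used here. Groups follow the titles, which name separate hens. No batch is given. Tumour 4 and normal hen 36 are the hens without the prefix LB in their titles, and the meaning of that prefix is not stated. Among the tumours, what sets tumour 4 apart therefore cannot be told apart from the missing prefix.

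The members and lists were chosen with earlier results of these data known. Named members are up to 12 per direction with the smallest p, plus RPLP0, RPLP1, RPLP2, RPS27L, RPL39L, RPL22, RPL5, RPL11, RPS6 and RPL3L; companions are the 4 per list with the smallest p plus fixed ones. RPL31, RPL34, RPL23, RPL24, MDM2 and the genes listed by pattern or overlap were named after their values were seen, and RPS4Y1 and RPSAP58 were added to the relatives after the annotation was read. The gene table names RefSeq assembly GRCg7b and was used for names only. No promoter or protein sequence was used here, so the planned sequence features were not analysed. Figures used matplotlib 3.10.9.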

Additional observations from a re-analysis of the deposited data

How the results depend on the processing

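Every one of the 21 alternatives gave 0 ribosomal protein genes past the limma threshold in either direction. At an unadjusted p under 0.05 they gave 1 or 2 genes, beside 5.77% to 12.1% of all probe sets, with these exceptions. There were 51 without tumour 4 (12.8% of all probe sets) and 47 in the LB hens alone (7.8%). With quantile normalization and tumour 4 left out together, an alternative chosen after seeing the data, there were 18 (12.7%). Each of these exceptions leaves out tumour 4, the tumour with the opposite shift. The 2 members higher without overlap became 1 with the filter at the 60th percentile, 13 with quantile normalization, 59 in the LB hens alone, 1 with the mean over probe sets, 39 with quantile normalization and no tumour 4, and 58 without tumour 4 (lowest count with 1 hen missing, 2). Over all probe sets the share higher without overlap was 7.45%, and in those settings 7.26%, 6.94%, 18.7%, 7.94%, 12.9% and 15.1%. The 0 lower became 1 with quantile normalization, with or without tumour 4, and 7 when centred on the members' median. The median of 0.19 lay between 0.03 and 0.41 when 1 hen was left out, at 0.42 in the LB hens alone and at 0.11 with quantile normalization. RPL38 turned from −0.06 to 0.16 in the LB hens and 0.29 over its probe sets, and lay between −0.18 and 0.14 when 1 hen was left out (0.14 without tumour 4). RPLP0 turned to −0.066 when centred and lay between −0.034 (without LB14) and 0.35 with 1 hen left out, at −0.013 without normal hen LB3. When centred, RPLP2 turned to −0.059, RPL11 to −0.043 and RPS6 to −0.039. RPL39L turned to −0.054 with quantile normalization, −0.0100 with tumour 4 left out as well and −0.14 when centred, and lay between −0.065 (without LB14) and 0.27 with 1 hen left out, at −0.050 without LB11. The EIF list's median of −0.05 became 0.016 over all probe sets of a gene and lay between −0.067 and 0.020 (without tumour 4) with 1 hen left out. The proteasome median was 0.11 in the LB hens and lay between −0.033 and 0.13 with 1 hen left out (0.13 without normal hen LB22, 0.099 without LB11). The cause of these changes was not tested. No paired analysis was possible because the groups share no replicate numbers. Signals are relative to the trimmed mean of their array, so a change in RNA per cell cannot be seen.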

Other observations

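After each hen was centred on its own median over the members, and each gene was then set against its mean in the normal hens, RPL34 stood at 0.72 in tumour LB14 (signal 17730) but at −0.29 in tumour LB11 (8198) and −0.36 in normal hen LB22 (6098). RPL34 was one of 3 members, with RPL23 and RPS2, that overlapped between the groups even without tumour 4. RPL23 had a signal of 8986 in LB14 against 4347 and 4650 in the other two tumours and 4386 to 4771 in normal ovaries. In tumour 4, RPS26 (−0.25) and RPS12 (−0.23) had the lowest of these centred differences from the normal mean after the dim RPL31 (−0.90), and RPL14 (0.23) had the highest after RPS27L and the dim RPS13. They compare a gene with itself in normal ovaries and do not rank the genes' levels within a hen. These values come from 1 hen each and have no replicate check.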
